A study of Mus musculus with 32 samples.

Results

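Folate-dependent one-carbon metabolism was examined through 8 genes known from neural tube defects, Folr1, Shmt1, Mthfd1, Shmt2, Mthfd2, Mthfd1l, Amt and Gldc, matched by Ensembl identifier among the 48576 genes of each FPKM table. All 8 passed the expression filter in every comparison. RNA came from forebrain (Fb) and midbrain (Mb) tissue of mouse embryos at E9.5, on the B6C3F1 background. Each tissue had 6 WT libraries, 4 libraries of Cdh6/8/11 triple knockout embryos with exencephaly, an open cranial neural tube (TKO_Ex), 3 of double knockout embryos with exencephaly (DKO_Ex) and 3 of double knockout embryos without exencephaly but with an elongated midbrain, termed cranial defect (DKO_CD). The deleted genes encode type II classical cadherins, which hold neighbouring cells together. The methods describe both double knockouts as Cdh8/11, whereas the labels name Cdh6.8 for DKO_CD. All mutant alleles descend from a single founder with small frameshift deletions inside the exons that hold the start codons, mutants came from crosses of triple heterozygotes, and WT embryos came from separate WT matings, so that the mutation and the line cannot be told apart. The sources used here do not say which libraries shared a litter, so the p-values measure the spread between these libraries, which may be partly technical.

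The folate pathway carries single carbon units on tetrahydrofolate. Serine and glycine supply these units, in the cytosol and in mitochondria, and they are spent on purines, on thymidylate and on the methyl groups of the methionine cycle. Rapidly dividing neuroepithelium has a high demand for all of these products. In mice, loss of Folr1, Mthfd1l, Amt or Gldc can leave the cranial neural tube open, and shortage of folate is a known risk for such defects in people.

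Several libraries need a remark before the results. In 12 of the double knockout files the column heading names the opposite double knockout group from the record that lists the file, and the headings were followed. The deposited values hold no read counts. The step between low values gave an estimated 1950000 to 3240000 fragments per library (median 2620000), and every TKO_Ex Mb library (1950000 to 2330000) was shallower than every WT Mb library (2410000 to 2960000). Every DKO_Ex Mb library (3090000 to 3230000) was deeper than every WT Mb library. The TKO_Ex Mb libraries had 0.388, 0.353, 3.10 and 0.345 FPKM of Cdh6, and the WT Mb libraries had 1.04 to 3.55 FPKM. In the Fb the TKO_Ex libraries had 1.84, 0.766, 3.74 and 0.572 FPKM of Cdh6 against 2.04 to 3.997 FPKM in WT. The pair of libraries labelled TKO_Ex replicate 3 was thus within the WT range of Cdh6 in both tissues, and results are also given without that pair. Cdh8 had 1.14 to 10.1 FPKM in the WT Mb and at most 2.32, 2.49 and 1.465 FPKM in the TKO_Ex, DKO_Ex and DKO_CD Mb. Cdh11 had 17.9 to 28.7 FPKM in the WT Mb, 14.5 to 16.6 FPKM in TKO_Ex, below every WT library, 17.6 to 18.7 FPKM in DKO_Ex and 16.6 to 27.2 FPKM in DKO_CD. In the Fb, Cdh8 had 0.840 to 1.96 FPKM in WT, 0.911 to 3.15 in TKO_Ex, 0.423 to 0.702 in DKO_Ex and 0.449 to 1.44 in DKO_CD. Cdh8 was thus not lower than WT in the TKO_Ex Fb. Cdh11 had 19.5 to 25.3 FPKM in the WT Fb, 19.8 to 21.4 in TKO_Ex, 17.1 to 18.7 in DKO_Ex and 12.7 to 25.3 in DKO_CD. In the DKO_CD Mb, Cdh6 had 1.29 to 2.11 FPKM, within the WT range, and in the DKO_CD Fb it had 3.43, 1.72 and 2.78 FPKM. The TKO_Ex libraries other than replicate 3 were below every WT library of their tissue for Cdh6. Such a small deletion need not lower the RNA of the rest of a gene, so these levels are a partial check of the genotypes. The tissue labels fitted the regional markers: the summed level of Six3, Rax, Lhx2, Pax6 and Barhl2 was 122 to 247 FPKM in the 16 Fb libraries and 5.93 to 69.7 FPKM in the 16 Mb libraries. The summed level of the midbrain list (En1, En2, Pax2, Pax5, Pax7 and Wnt1) was 8.07 to 12.3 FPKM in the Fb and 36.5 to 194.9 FPKM in the Mb. Its lowest Mb value belonged to WT Mb replicate 5, which also had the highest forebrain sum among the WT Mb libraries.

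FPKM divides the fragments of a gene by its length and by the mapped fragments of the library, so levels of different genes can be set side by side. In WT the mitochondrial serine hydroxymethyltransferase Shmt2 had the highest level of the 8 genes and the folate receptor Folr1 the lowest, in both tissues. In the Fb the mean levels ran from Shmt2 (66.4 ± 6.69 FPKM, SD, n = 6) through Mthfd2 (42.4 ± 3.78), Mthfd1 (36.4 ± 4.16), Gldc (34.1 ± 3.55), Shmt1 (33.9 ± 5.79), Amt (22.3 ± 1.96) and Mthfd1l (16.9 ± 1.47) to Folr1 (7.22 ± 2.45). The ranges of Mthfd2 and Mthfd1, of Mthfd1 and Gldc and of Gldc and Shmt1 overlapped, whereas each other pair of neighbours in that order was separated in all 6 libraries. In the Mb the order was Shmt2 (59.7 ± 4.96), Mthfd2 (38.5 ± 6.48), Mthfd1 (33.7 ± 2.77), Shmt1 (27.8 ± 6.15), Amt (21.2 ± 4.06), Mthfd1l (15.1 ± 2.70), Gldc (8.23 ± 2.23) and Folr1 (4.88 ± 2.70), and here only Shmt2 was separated from its neighbour. Thus 7 genes kept their relative order between the tissues, and Gldc moved from the fourth place to the seventh.

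**Figure D1:**
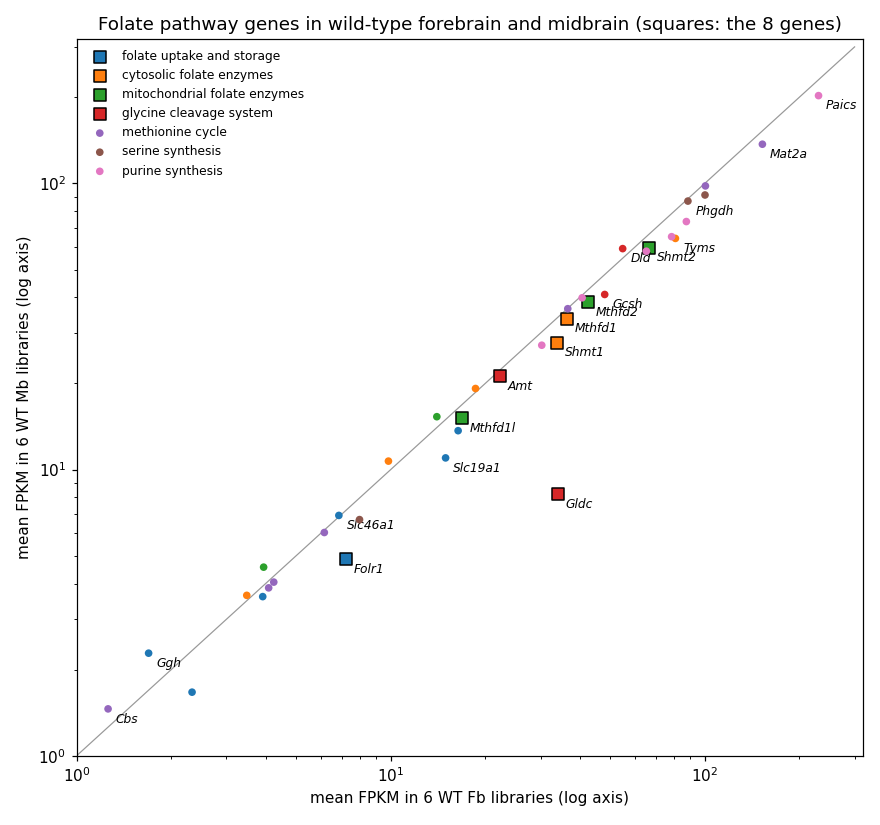
Mean FPKM in the 6 WT Mb libraries (vertical, log axis) against mean FPKM in the 6 WT Fb libraries (horizontal, log axis) for folate pathway genes with at least 1 FPKM in both; squares mark the 8 genes, colours the lists, and the line marks equal levels. Gldc lies below the line at 34.1 FPKM in the Fb and 8.23 FPKM in the Mb.

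Folate enters the cell through Folr1, a membrane receptor that binds folate tightly and takes it in by endocytosis. Folr1 (ENSMUSG00000001827, GRCm38, chr7:101858331-101870788, minus strand) had 3.24, 7.76 and 9.72 FPKM as lowest, median and highest of the WT Fb libraries and 1.16, 4.85 and 8.60 FPKM in the WT Mb libraries. It was the least even of the 8 genes: over all 32 libraries its level ranged from 1.16 to 12.1 FPKM, a 10.5-fold span. Its SD within groups was 0.70 on the log2 scale, and 8.43% of the 2336 genes within 0.5 log2 units of its mean level had a larger one. These values rest on at most 6 to 65 fragments per library. On the opposite strand the annotation places Anapc15 (mean 25.2 FPKM) over Folr1, and the libraries were directional.

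In the cytosol Shmt1 moves a carbon from serine to tetrahydrofolate, and the trifunctional enzyme Mthfd1 interconverts the resulting folates and makes the formyl donor of purine synthesis. Shmt1 (ENSMUSG00000020534, chr11:60788104-60811718, minus strand) ranged from 20.5 to 41.9 FPKM and Mthfd1 (ENSMUSG00000021048, chr12:76255298-76319803, plus strand) from 28.7 to 41.8 FPKM over the 32 libraries. Mthfd1 varied little, with an SD within groups of 0.14 on the log2 scale, and 85.7% of genes of like level had a larger SD.

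In mitochondria Shmt2 does the same step, Mthfd2 oxidises the carbon unit and Mthfd1l releases it as formate to the cytosol. Shmt2 (ENSMUSG00000025403, chr10:127517123-127522444, minus strand) ranged from 52.5 to 78.2 FPKM. In every library it exceeded the cytosolic Shmt1, by 1.41 to 2.90 times (median 2.24). Mthfd2 (ENSMUSG00000005667, chr6:83305691-83325908, minus strand) ranged from 28.7 to 50.9 FPKM. Mthfd1l (ENSMUSG00000040675, chr10:3973118-4167081, plus strand) ranged from 11.1 to 20.3 FPKM, and Mthfd1 exceeded it 1.61 to 3.30 times in each library.

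Amt and Gldc belong to the glycine cleavage system, the mitochondrial complex that splits glycine and hands a carbon unit to folate. Gldc is the decarboxylase (P protein) that starts the reaction and Amt the aminomethyltransferase (T protein). Amt (ENSMUSG00000032607, chr9:108296853-108302302, plus strand) ranged from 13.7 to 27.2 FPKM over the 32 libraries. Gldc (ENSMUSG00000024827, chr19:30098447-30175429, minus strand) ranged from 26.9 to 44.7 FPKM in the 16 Fb libraries and from 5.83 to 12 FPKM in the 16 Mb libraries.

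**Figure D2:**
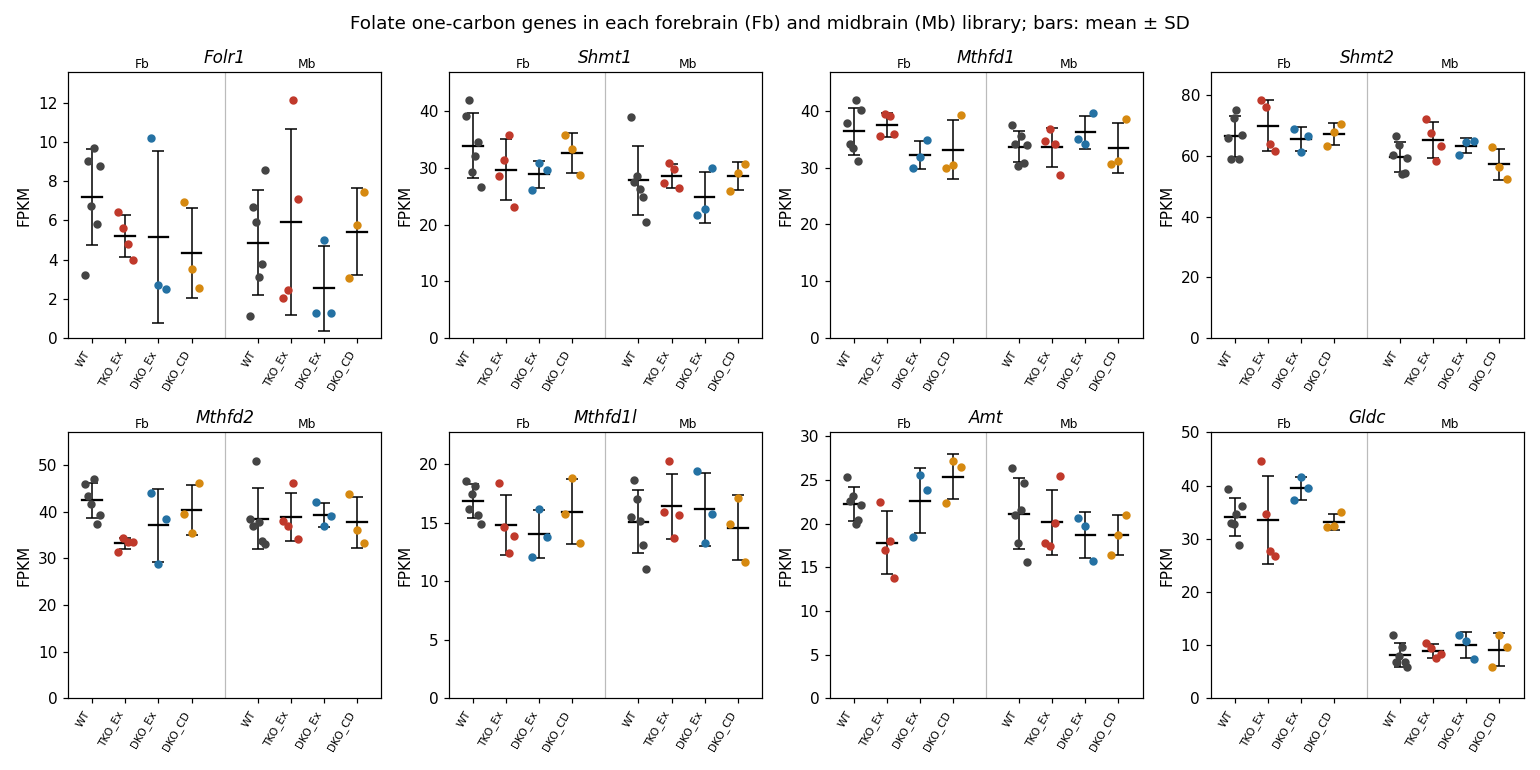
FPKM of the 8 genes (vertical axes, each from 0) in every library, 1 point a library, by group and tissue; horizontal bars give the mean and error bars the SD over 6 WT, 4 TKO_Ex, 3 DKO_Ex and 3 DKO_CD libraries. The Gldc points of the Fb (26.9 to 44.7 FPKM) and Mb (5.83 to 12 FPKM) are separate in every group, while those of the other 7 genes overlap between WT tissues.

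RefSeq (GRCm38.p6) gives a start for 7 of the 8 genes, and Folr1 had no entry in the table used. The 250 bases before the start are shown for Gldc, which differed between the tissues, and for Shmt2, the most highly expressed member, which did not pass that test. Both are written 5′ to 3′ on the strand of the gene, the minus strand, and capitals mark the matches to the motifs searched on both strands. The window of Gldc is chr19:30175442-30175691 and that of Shmt2 is chr10:127522445-127522694.
Gldc: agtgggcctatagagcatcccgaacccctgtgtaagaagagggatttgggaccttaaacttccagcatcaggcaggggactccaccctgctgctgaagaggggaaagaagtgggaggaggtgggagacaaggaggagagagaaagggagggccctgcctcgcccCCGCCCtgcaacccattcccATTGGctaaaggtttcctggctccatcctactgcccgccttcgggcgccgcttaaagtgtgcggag
Shmt2: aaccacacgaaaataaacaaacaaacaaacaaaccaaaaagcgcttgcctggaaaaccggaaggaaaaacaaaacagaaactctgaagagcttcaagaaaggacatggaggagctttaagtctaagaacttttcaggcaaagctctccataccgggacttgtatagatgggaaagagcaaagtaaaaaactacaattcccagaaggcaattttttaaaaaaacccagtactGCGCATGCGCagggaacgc
In the Gldc window the capitals are a CCAAT box (CCAAT, reverse strand, beginning 66 bases before the start) and a GC box (GGGCGG, reverse strand, 86 bases before it). In the Shmt2 window they are the NRF1 palindrome (GCGCA followed by its reverse complement, beginning 19 bases before the start). A CCAAT box was in the windows of 5 of the 7 genes (Mthfd1, Mthfd2, Shmt1, Amt and Gldc) and in 33.8% of all 32851 windows. A GC box was in 5 of 7 (Mthfd1, Mthfd1l, Shmt1, Amt and Gldc) and in 32.7% of all. The NRF1 palindrome was found for Shmt2 alone among the 7, and in 0.782% of all windows. The E-box CACGTG (6.02% of all windows) and the homeodomain core TAATTA (4.84%) were in none of the 7 windows. Thus Gldc shared both of its motifs with Amt, Shmt1 and Mthfd1, which did not pass the test between tissues, and these letter matches were not tested against the expression values.

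To ask whether the pathway differed between the Fb and Mb, the tissues were compared within each group by limma on log2(FPKM + 1), with adjusted p-values (Benjamini-Hochberg over all tested genes) under 0.05 as the threshold. Gldc was lower in the Mb of all 4 groups, and it was the single member that passed the threshold in any comparison. In WT, Gldc had 28.9, 33.8 and 39.4 FPKM as lowest, median and highest value in the Fb and 5.98, 7.41 and 11.98 FPKM in the Mb. All Mb libraries were far below all Fb libraries, a 4.14-fold difference of the means. In whole tissue, fewer cells of a type and less RNA per cell cannot be told apart. The log2 difference (Mb minus Fb) was -1.95 (SE 0.14, 95% interval -2.26 to -1.65, adjusted p = 1.12e-06), which placed Gldc 39th by p among 13344 tested genes. Of those genes 8.26% passed the threshold, 20.9% had an unadjusted p under 0.05 and 2.23% were lower in every Mb than in every Fb library.

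The same held in the mutants, whose libraries are separate from those of WT and of each other. In TKO_Ex, Gldc had 44.7, 34.6, 27.7 and 26.9 FPKM in the Fb and 10.5, 9.45, 7.53 and 8.39 FPKM in the Mb. The groups did not overlap and the log2 difference was -1.77 (SE 0.18, adjusted p = 0.000943), where 2.89% of 13477 genes passed the threshold, 12.6% had an unadjusted p under 0.05 and 4.27% were lower in every Mb library. Without the pair labelled TKO_Ex replicate 3 it was -1.78 (adjusted p = 0.0128). In DKO_Ex, Gldc had 37.3, 41.6 and 39.6 FPKM in the Fb and 12, 10.7 and 7.38 FPKM in the Mb. The log2 difference was -1.90 (SE 0.18, adjusted p = 0.00286), and here 2.58% of 13314 genes passed, 14.4% had an unadjusted p under 0.05 and 7.86% were lower in every Mb library. In DKO_CD, Gldc had 32.3, 32.4 and 35.0 FPKM in the Fb and 5.83, 11.96 and 9.74 FPKM in the Mb. The difference there was of like size, -1.80 (SE 0.24, adjusted p = 0.0299), but its call was the least firm. Background figures for DKO_CD were 0.507% past the threshold, 10.1% with an unadjusted p under 0.05 and 8.21% lower in every Mb library, of 13415 genes. The adjusted p rose to 0.0803 with no filter on low values and to 0.0658 with no mean-variance trend. It was 0.0812 to 0.144 when DKO_CD Fb replicate 1, 2 or 3 or DKO_CD Mb replicate 3 was left out, with log2 differences of -1.86 to -1.76.

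Of the 12625 genes tested in all 4 groups, 28 (0.222%) were lower in the Mb past the threshold in each, Gldc among them. The others included the forebrain and eye-field transcription factor genes Six3, Six6, Rax, Lhx2, Fezf1, Fezf2 and Vax1 and the Wnt receptor genes Fzd5 and Fzd8, chosen for mention after their values were seen.

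**Figure D3:**
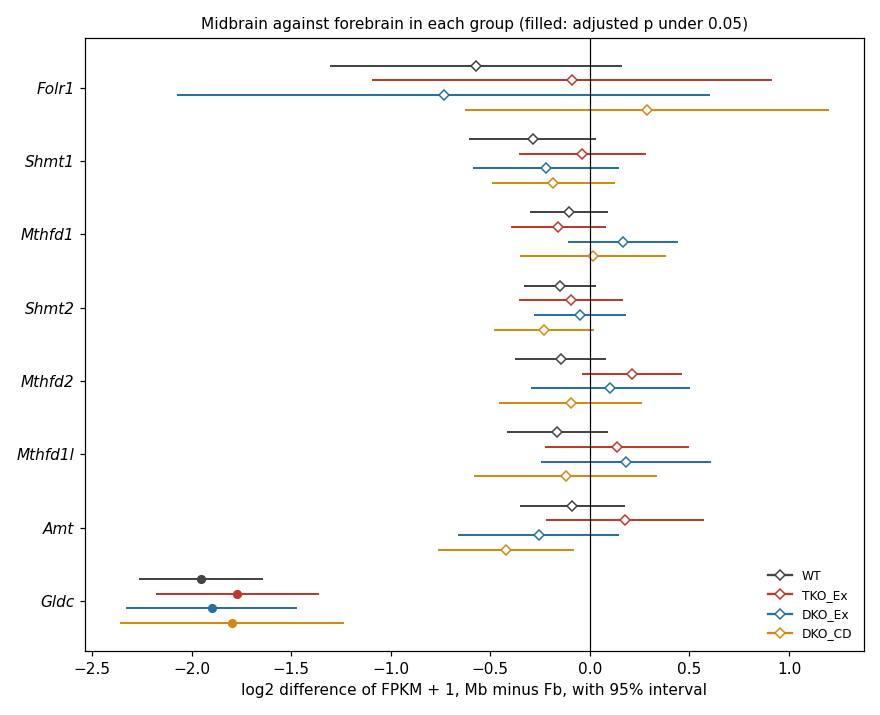
Difference between Mb and Fb for each of the 8 genes in WT, TKO_Ex, DKO_Ex and DKO_CD (horizontal axis: log2 units of FPKM + 1, with 95% intervals); filled points passed an adjusted p of 0.05. The 4 Gldc estimates lie between -1.95 and -1.77, and all other points are open.

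The remaining 7 genes were less than 0.6 log2 units apart between the WT tissues and did not pass the test. In WT the log2 difference was -0.57 for Folr1 (95% interval -1.30 to 0.16), -0.29 for Shmt1 (-0.60 to 0.02), -0.16 for Mthfd1l (-0.41 to 0.09), -0.15 for Shmt2 (-0.33 to 0.03), -0.15 for Mthfd2 (-0.37 to 0.08), -0.10 for Mthfd1 (-0.29 to 0.08) and -0.09 for Amt (-0.35 to 0.17). All 7 estimates were negative, while the median over all tested genes was -0.003. Except for Folr1, the intervals reached no lower than -0.60. In DKO_CD, Amt had 22.4, 27.2 and 26.4 FPKM in the Fb and 16.4, 18.7 and 21.0 FPKM in the Mb. These groups did not overlap and the unadjusted p was 0.0205, but the log2 difference of -0.42 did not pass after adjustment (adjusted p = 0.363), and 8.21% of all genes were lower without overlap and 10.1% had such an unadjusted p in DKO_CD. Shmt2 was also lower in every Mb library of DKO_CD without passing (log2 difference -0.23, adjusted p = 0.536). Amt and Gldc act in the same complex, and the ratio of their FPKM changed with the tissue: Gldc over Amt was 1.19 to 2.03 in the 16 Fb libraries and 0.280 to 0.641 in the 16 Mb libraries.

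Other tissue components moved in the same direction as Gldc between the dissected regions, and their part in its difference was not tested. In WT the summed level of the 6 surface ectoderm markers (Krt8, Krt18, Epcam, Grhl3, Trp63 and Tfap2c) was 55.5 to 89.2 FPKM in the Fb and 22.7 to 36.4 FPKM in the Mb, with 3 of 4 tested markers lower in the Mb past the threshold. The mesenchyme markers (Twist1, Prrx1, Pdgfra, Foxc1 and Col1a1) summed to 109 to 139 FPKM in the Fb and 45.3 to 80.5 FPKM in the Mb, with 4 of 5 lower and Col1a1 higher. No marker of either list was at 0 throughout a tissue. In DKO_CD the mesenchyme sum overlapped between the tissues (53.9 to 124 FPKM in the Fb, 74.1 to 118 FPKM in the Mb), while the surface ectoderm sum (72.8 to 191 FPKM in the Fb, 20.01 to 68.8 FPKM in the Mb) and Gldc did not. The neuroepithelial markers (Sox1, Sox2, Nes, Hes5 and Cdh2) summed to 224.6 to 289.6 FPKM in the WT Fb and 347 to 450.3 FPKM in the WT Mb, with 2 of 5 (Nes and Hes5) higher in the Mb past the threshold and a list median of 0.19. Endothelial, primitive red cell and proliferation lists overlapped between the WT tissues, and 0 of their 16 genes passed the test in limma, with 0 at an unadjusted p under 0.05. In TKO_Ex, however, 1 of 5 red cell markers was higher in the Mb past the threshold. WT Mb replicate 5, with the low midbrain sum of 36.5 FPKM and a forebrain sum of 69.7 FPKM, had 6.90 FPKM of Gldc, within the range of the other WT Mb libraries, and without the pair of WT replicate 5 the WT difference of Gldc was -1.96 (adjusted p = 1.44e-05).

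To ask whether cadherin loss or an open neural tube went with a change of the pathway, TKO_Ex, DKO_Ex and DKO_CD were set against WT, tissue by tissue. None of the 8 genes passed the threshold in any of the 6 comparisons in limma. In the Mb 0 of 8 had an unadjusted p under 0.05 in TKO_Ex, DKO_Ex or DKO_CD. Over all genes 0.0898%, 0.0903% and 0.0375% passed the threshold in these comparisons, and 8.38%, 5.46% and 6.69% had an unadjusted p under 0.05. In the Fb the unadjusted p was under 0.05 for 2 of 8 genes in TKO_Ex, 0 of 8 in DKO_Ex and 0 of 8 in DKO_CD, beside 8.66%, 7.01% and 8.44% of all genes. Past the threshold were 0.0603%, 0.0759% and 0.0378% of all genes. The median log2 difference of the 8 genes from WT was 0.09 in TKO_Ex, 0.06 in DKO_Ex and -0.02 in DKO_CD in the Mb, and -0.18, -0.19 and -0.06 in the Fb. Beside these, the median over all tested genes was 0.02, 0.03 and 0.02 in the Mb and 0.02, -0.01 and 0.04 in the Fb. Within a tissue the same 6 WT libraries served all 3 mutants.

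Gldc did not pass the test in any mutant. Its log2 difference from WT in the Mb was 0.13 (95% interval -0.26 to 0.53) in TKO_Ex, 0.27 (-0.22 to 0.75) in DKO_Ex and 0.12 (-0.42 to 0.66) in DKO_CD. In the Fb it was -0.05 (-0.36 to 0.26), 0.21 (-0.02 to 0.44) and -0.03 (-0.26 to 0.20). The difference between its Mb and Fb effects, tested as an interaction, was 0.18 (-0.30 to 0.67) in TKO_Ex, 0.05 (-0.46 to 0.57) in DKO_Ex and 0.16 (-0.41 to 0.73) in DKO_CD. In no mutant did this interaction pass for any of the 8 genes, with adjusted p-values of 0.745 or more, and the lowest of these was that of Mthfd2 in TKO_Ex. Over all genes 0.0149%, 0% and 0.00746% passed the interaction test in TKO_Ex, DKO_Ex and DKO_CD, and 6.5%, 3.88% and 4.83% had an unadjusted p under 0.05. Among the 8 genes that count was 1, 0 and 0.

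The members with a low unadjusted p in the TKO_Ex Fb were Mthfd2 and Amt. Mthfd2 had 31.4, 34.4, 33.4 and 33.5 FPKM in TKO_Ex against 37.3, 42.5 and 47.0 FPKM as lowest, median and highest WT Fb value. All 4 libraries were below all 6, as was so for 0.814% of all genes in that direction. The log2 difference was -0.34 (SE 0.08, 95% interval -0.53 to -0.16, unadjusted p = 0.00187), and it missed the threshold after adjustment (adjusted p = 0.236). In the Mb of TKO_Ex the same gene had 37.9, 37.0, 46.1 and 34.1 FPKM, all within the WT range of 33.1 to 50.9 FPKM. The upper end of that range was WT Mb replicate 3 alone. The next WT value was 38.4 FPKM, below the 46.1 FPKM of TKO_Ex replicate 3. The interaction of Mthfd2 was 0.36 (0.04 to 0.68, unadjusted p = 0.0300, adjusted p = 0.745), and without the pair labelled TKO_Ex replicate 3 it was 0.28. Amt had 22.5, 17.1, 18.0 and 13.7 FPKM in the TKO_Ex Fb against 19.96, 22.4 and 25.3 FPKM in WT. Of these libraries 3 of 4 were below all WT libraries, and the log2 difference was -0.32 (-0.60 to -0.04, adjusted p = 0.502). In the DKO_CD Fb, Amt had 22.4, 27.2 and 26.4 FPKM, 2 of 3 libraries above all WT libraries, with a log2 difference of 0.18 (-0.06 to 0.41, adjusted p = 0.674). Its log2 difference was 0.01 in the DKO_Ex Fb and -0.06, -0.15 and -0.16 in the Mb of TKO_Ex, DKO_Ex and DKO_CD, none past the threshold.

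Cell-type markers also differed between mutant and WT libraries, none past the threshold, and their part in the values of Mthfd2, Amt and Gcsh was not tested. In the TKO_Ex Fb the surface ectoderm sum was 82.1 to 212.2 FPKM against 55.5 to 89.2 FPKM in WT. There 3 of 6 of these markers had an unadjusted p under 0.05 (list median 0.54), and so had 2 of 5 mesenchyme markers (list median -0.19). The lowest Amt value of that group, 13.7 FPKM, was in the library with the highest surface ectoderm sum. In the DKO_Ex Fb the library with the highest sum (155.6 FPKM) had the highest Amt of its group (25.6 FPKM). So had the DKO_CD library with the highest sum (191 FPKM, Amt 27.2 FPKM). These are single libraries, and a relation of Amt to the markers was not tested. In the DKO_Ex and DKO_CD Fb the surface ectoderm medians were 0.41 and 0.49, with 1 of 5 and 2 of 6 markers at such a p. In the DKO_CD Mb, 4 of 5 mesenchyme markers had an unadjusted p under 0.05, with a list median of 0.64. Shares of all genes with such a p were 8.66%, 7.01% and 8.44% for the Fb of TKO_Ex, DKO_Ex and DKO_CD. For the DKO_CD Mb the share was 6.69%. Of the neuroepithelial markers 2 of 5 had such a p in the DKO_CD Fb (list median 0.32). So had 2 of 5 mesenchyme markers in the DKO_Ex Fb (list median -0.32). With 0 markers at such a p, list medians in the Mb reached 0.46 (midbrain) and -0.64 (forebrain) for TKO_Ex. For DKO_Ex they reached 0.61 (midbrain) and -0.615 (red cell).

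Folr1 had the widest spread in the mutants as well. In the Mb it had 2.03, 2.46, 12.1 and 7.08 FPKM in TKO_Ex, 1.29, 5.01 and 1.3 FPKM in DKO_Ex and 3.08, 5.78 and 7.44 FPKM in DKO_CD. All but the library labelled TKO_Ex replicate 3 were within the WT Mb range of 1.16 to 8.60 FPKM. The log2 difference from WT was 0.13 (95% interval -0.94 to 1.20) in TKO_Ex, -0.74 (-1.80 to 0.32) in DKO_Ex and 0.22 (-0.75 to 1.19) in DKO_CD. Without the pair labelled TKO_Ex replicate 3 the first turned to -0.27 (adjusted p = 0.934). In the Fb it was -0.35 (-0.91 to 0.20), -0.58 (-1.47 to 0.32) and -0.64 (-1.37 to 0.10), with 6.45, 5.62, 4.80 and 3.98 FPKM in TKO_Ex, 10.2, 2.72 and 2.497 FPKM in DKO_Ex and 6.93, 3.55 and 2.57 FPKM in DKO_CD. The WT Fb range was 3.24 to 9.72 FPKM. Of the DKO_Ex Fb libraries 1 of 3 was above it and 2 of 3 were below, and 1 of 3 DKO_CD Fb libraries was below. All TKO_Ex Fb libraries were within it. Changes within the interval of each comparison remained possible at this depth and spread, and the intervals are not limits of detection.

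The other 4 genes had narrower intervals. Over the 6 comparisons with WT, the log2 differences ran from -0.17 to 0.10 for Mthfd1, from -0.06 to 0.13 for Shmt2, from -0.21 to 0.06 for Shmt1 and from -0.25 to 0.12 for Mthfd1l. Mthfd1l was below every WT Fb library in 3 of 4 TKO_Ex and 2 of 3 DKO_Ex libraries. In the DKO_CD Fb 1 of 3 was below and 1 of 3 above. In the Mb it was above every WT library in 1 of 4 TKO_Ex and 1 of 3 DKO_Ex libraries. Mthfd1 was below every WT Fb library in 2 of 3 DKO_CD and 1 of 3 DKO_Ex libraries. In the Mb it was above in 1 of 3 of each and below in 1 of 4 TKO_Ex libraries. Shmt2 was above every WT library in 2 of 4 TKO_Ex libraries in each tissue, and below in 1 of 3 DKO_CD Mb libraries. Shmt1 was below every WT Fb library in 1 of 4 TKO_Ex and 1 of 3 DKO_Ex libraries. For counts that cover part of a group the share of all genes was not computed. The intervals for Shmt2 reached from -0.28 at the lowest to 0.32 at the highest.

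**Figure D4:**
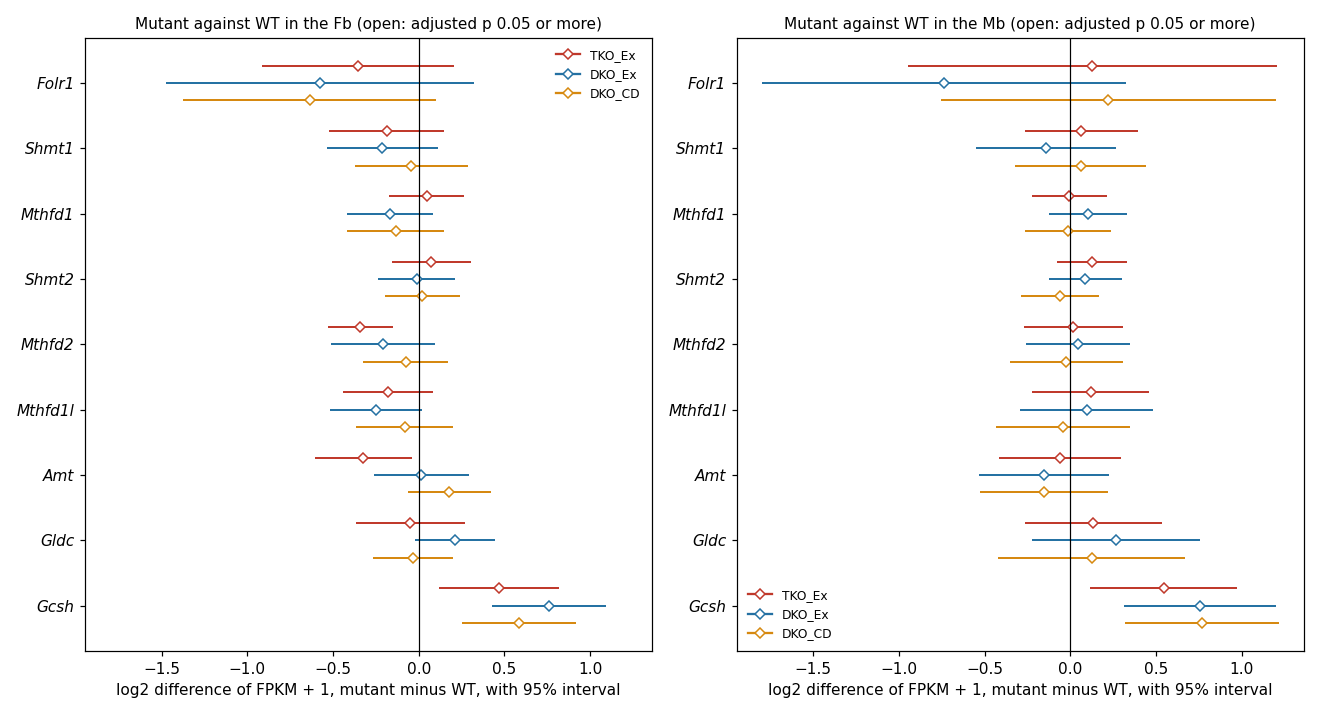
Difference from WT for the 8 genes and Gcsh in TKO_Ex, DKO_Ex and DKO_CD, in the Fb (left) and the Mb (right), on the horizontal axis in log2 units of FPKM + 1 with 95% intervals; no point passed an adjusted p of 0.05. The Gcsh estimates lie between 0.47 and 0.77, and Folr1 has the widest intervals.

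The wider pathway was covered by 7 lists, for folate uptake and storage, cytosolic and mitochondrial folate enzymes, the glycine cleavage system, the methionine cycle, serine synthesis and purine synthesis. They hold 38 genes beyond the 8, of which 30 or 31 passed the expression filter in each comparison. In none of the 13 comparisons did any of these pass the threshold in limma, in either direction, and 0 to 5 had an unadjusted p under 0.05 in a comparison. The 5, of 30 tested, were between the WT tissues, where 20.9% of all genes had one. In WT the 30 tested had a median log2 difference between Mb and Fb of -0.08. High levels of these lists in the WT Fb were those of the purine synthesis enzyme gene Paics (230.3 FPKM), of Mat2a, which makes the methyl donor S-adenosylmethionine (153 FPKM), of Ahcy, which clears the S-adenosylhomocysteine left after methyl transfer (100.5 FPKM), and of the serine synthesis genes Psat1 (100.2 FPKM) and Phgdh (88.4 FPKM). Tyms, the thymidylate synthase gene, had 80.7 FPKM in the Fb and 64.3 FPKM in the Mb (log2 difference -0.34, adjusted p = 0.142). Among uptake genes the reduced folate carrier gene Slc19a1 had 14.96 FPKM in the WT Fb and 10.99 FPKM in the WT Mb (log2 difference -0.42, adjusted p = 0.0924), and the proton-coupled transporter gene Slc46a1 had 6.84 and 6.92 FPKM. These transporters were picked for mention after their values were seen. At the low end of the lists were Folr2 (0.135 FPKM in the WT Fb), the cytosolic formyltetrahydrofolate dehydrogenase gene Aldh1l1 (0.273 FPKM), its mitochondrial counterpart Aldh1l2 (0.538 FPKM), Sardh (0.891 FPKM) and Bhmt (0.0570 FPKM), and Ftcd was listed at 0 in all WT libraries.

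The glycine cleavage system was read in full, since Gldc and Amt work with Gcsh, the H protein that carries the intermediate, and Dld, the dehydrogenase that recycles it. Gcsh is named here because of its values, which were seen first. In WT, Gcsh had 35.6, 47.8 and 59.6 FPKM as lowest, median and highest in the Fb and 27.3, 44.6 and 50.8 FPKM in the Mb. In the Mb, TKO_Ex had 44.9, 67.7, 61.8 and 62.5 FPKM, DKO_Ex 70.3, 66.4 and 67.6 FPKM and DKO_CD 63.4, 70.9 and 71.4 FPKM. In the Fb the same groups had 56.2, 75.8, 79.5 and 55.7 FPKM, 84.3, 75.7 and 82.8 FPKM and 67.0, 72.5 and 75.6 FPKM. Every DKO_Ex and DKO_CD library was above every WT library of its tissue, and so were 3 of 4 TKO_Ex libraries in the Mb and 2 of 4 in the Fb. Of all genes 2.01% and 2.24% were higher without overlap in the DKO_Ex and DKO_CD Mb, and 1.46% and 2.92% in the Fb. The log2 differences from WT were 0.54 in TKO_Ex, 0.76 in DKO_Ex and 0.77 in DKO_CD in the Mb (adjusted p = 0.4928, 0.501 and 0.489) and 0.47, 0.76 and 0.59 in the Fb (adjusted p = 0.424, 0.166 and 0.367). Thus 0 of 6 were past the threshold, and the unadjusted p-values ran from 0.000403 to 0.0163. Without the pair labelled TKO_Ex replicate 3 the TKO_Ex values were 0.52 in the Mb and 0.38 in the Fb. Gcsh lies on chromosome 8 (ENSMUSG00000034424, chr8:116981810-116993537, minus strand), the chromosome of Cdh8 and Cdh11 and 14.2 Mb from Cdh11, while the 8 genes and Dld lie on other chromosomes than Cdh6, Cdh8 and Cdh11. Dld had 50.5 to 58.5 FPKM in the WT Fb and 53.1 to 68.8 FPKM in the WT Mb and overlapped with WT in all 6 comparisons.

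**Figure D5:**
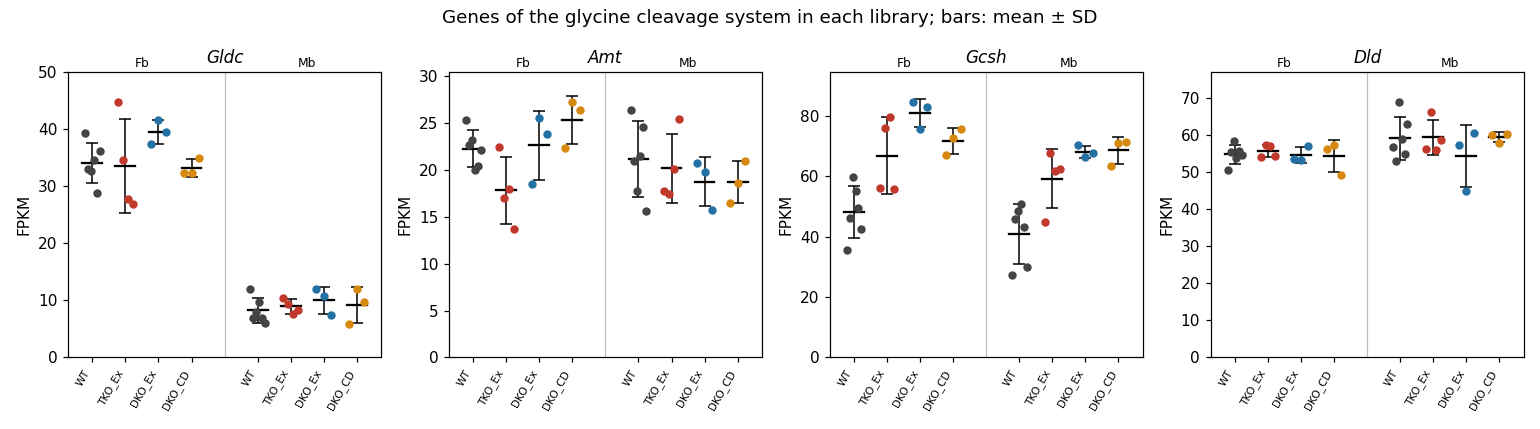
FPKM of the 4 genes of the glycine cleavage system (vertical axes, each from 0) in every library, by group and tissue, with the mean and SD as bars. Gldc separates the tissues (26.9 to 44.7 FPKM in the Fb, 5.83 to 12 FPKM in the Mb), Amt and Dld overlap between them in WT, and Gcsh is above WT in all DKO_Ex and DKO_CD libraries.

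Genes with the pattern most like each member were ranked by Pearson's r of log2(FPKM + 1) over the 32 libraries, among the 13441 genes that averaged 1 FPKM or more. For Gldc they included Fezf1 and Fzd8, each with r = 0.97. This likeness was mainly the split between tissues: within the 16 Fb libraries r was 0.65 and 0.61, and within the 16 Mb libraries, where Fezf1 averaged 0.2 FPKM, it was 0.22 and 0.34. Shmt2 was most like Sox5 (r = 0.72), Traf4 (0.68) and Pyurf (0.67). For Shmt1 the leading genes were 2810004N23Rik (0.74), Txnl4a (0.70) and Znrd1 (0.70), and for Mthfd1 they were Nop2 (0.67), Sf3a3 (0.64) and Topors (0.63). Mthfd1l was most like Chst14 (0.69), Ccnb2 (0.67) and Akr1a1 (0.65). Mthfd2 was led by Gm7935 (0.62), Eif2ak1 (0.61) and Sart1 (0.61), Amt by Trip10 (0.65), L3mbtl2 (0.64) and Ggta1 (0.64), and Folr1 by Prickle3 (0.59), Scarf1 (0.58) and Mical1 (0.56). Once group means were removed, r over the 28 pairs of the 8 genes ranged from -0.36 to 0.55, with a median of 0.06, and the highest was that of Amt and Gldc. All these points share library depth and tissue makeup, and genes with the highest r were picked from many.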

How the data were processed

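Per the labels and the methods, directional libraries were sequenced on a HiSeq instrument, reads were aligned to GRCm38/mm10 with TopHat2, and the authors computed FPKM per gene with Cufflinks. The deposited FPKM values were used, 1 table per library (32 libraries, 16 per tissue). Counts from HTSeq and the DESeq2 results made from them were not used here. Depth was estimated from the smallest step between values of 769 genes with 1 annotated transcript, 4000 bp or longer. In each library 88.7 to 96.2% of their low values above 0 fell within 0.15 of a whole fragment. The depth was itself chosen for such closeness, so this share is no independent check of it. Depth limits the precision of low genes. Each file holds 48641 rows, 65 repeated identifiers were summed, and symbols came from GENCODE M21 (48132 of 48576 identifiers). Groups followed the column headings. Values were tested as log2(FPKM + 1) with limma 3.58.1 (R 4.3.3, mean-variance trend, two-sided, Benjamini-Hochberg over genes averaging 1 FPKM or more in the libraries compared). Fold changes are on that scale, which understates changes of low genes. Each mutant was compared with WT within a tissue, the tissues within each group, and the effects between tissues by an interaction, 13 comparisons in all. Scripts used Python 3.11.15, pandas 2.3.3 and NumPy 2.4.6, and the fit was tested on simulated data. Alternatives changed the pseudocount, the filter, the scaling, the trend, the libraries, the grouping of the double knockouts and the replicate block. All 8 genes were named, with the 3 highest or lowest genes of each pathway list in WT, the 3 genes most like each member, and exceptions stated where they occur. The members and lists were chosen with earlier results of these data known. Of 98 listed genes 97 were found, and Foxc2 was not analysed here. A further gene is not reported here.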

Additional observations from a re-analysis of the deposited data

Results flagged for a closer look

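Mthfd2 in WT Mb replicate 3 (50.9 FPKM) stood apart from the other 5 WT Mb libraries, of which the nearest had 38.4 FPKM. The gap was 0.701 of the whole range of the group, above Dixon's critical value for 6 samples. It was the single such value among 36 groups of 4 or 6 libraries examined for the 8 genes and Gcsh, and chance flags about 1 in 20 groups. None of the 27 interaction tests of these 9 genes passed an adjusted p of 0.05 in limma.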

How the results depend on the processing

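The lower Gldc level in the Mb passed the threshold in WT, TKO_Ex and DKO_Ex under every alternative run, with log2 differences from -2.07 to -1.57, -1.87 to -1.44 and -1.99 to -1.58, and in leave-one-out fits from -2.06 to -1.88, -1.86 to -1.63 and -2.03 to -1.71. In DKO_CD its direction held throughout (-1.997 to -1.454) but the number of members past the threshold was 0 in place of 1 with no filter (adjusted p = 0.0803), with no trend (0.0658) and with the replicate block (0.0715), and 0 to 1 when a library was left out. Those fits estimated a common spread over both arms, and why the adjusted p rose was not tested. Of 100 member values that passed no threshold, 49 changed sign under some alternative, and 0 of 2092 alternative fits brought one past it. Grouping the double knockouts by record exchanged the values of DKO_Ex and DKO_CD. It turned Folr1 in the Mb to 0.22 and -0.74 and Gldc in the Fb to -0.032 and 0.21. The replicate block turned Gldc in the TKO_Ex Mb to -0.0071, and a pseudocount of 5 turned its DKO_Ex interaction to -0.0031. Leaving out both libraries labelled TKO_Ex replicate 3, an alternative chosen after seeing the data as was leaving out both of WT replicate 5, turned Folr1 in the TKO_Ex Mb to -0.27 and Gldc in the TKO_Ex Fb to 0.029. Leaving out single libraries moved Folr1 from -0.27 to 0.44 in the TKO_Ex Mb and from -0.037 to 0.52 in the DKO_CD Mb. Likewise Gldc moved from -0.076 to 0.39 in the DKO_CD Mb, from -0.19 to 0.043 in the TKO_Ex Fb and from -0.078 to 0.0095 in the DKO_CD Fb, and its interactions from -0.076 to 0.24 in DKO_Ex and from -0.043 to 0.42 in DKO_CD. The cause was not tested. Over all genes, the number past the threshold ran across alternatives from 0 to 52, 1 to 17 and 1 to 12 in the TKO_Ex, DKO_Ex and DKO_CD Mb (12, 12 and 5 as reported) and from 0 to 32, 2 to 14 and 2 to 15 in the Fb (8, 10 and 5). Between the tissues it ran from 780 to 1317 in WT, 163 to 695 in TKO_Ex, 68 to 562 in DKO_Ex and 26 to 386 in DKO_CD (1102, 389, 344 and 68).

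Same-numbered Mb and Fb libraries had correlated deviations of 0.03 to 0.09 in WT, 0.01 to 0.12 in TKO_Ex, 0.08 to 0.12 in DKO_Ex and 0.03 to 0.14 in DKO_CD, and 5 of 6, 3 of 4, 3 of 3 and 2 of 3 matched best with their own number, a hint from the data and not the design. Between genotypes none did so. The labels do not say whether Mb and Fb libraries of one number came from one embryo. Apart from these correlations this was not tested. The main fits treated the libraries as unpaired. With the replicate block, Gldc between the tissues of DKO_CD was no longer past the threshold, and no other call of a member changed. Estimated depth limits Folr1 most, with at most 6 to 65 fragments per library.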
